A study of Drosophila melanogaster with 12 samples.

Results

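The imaginal disc growth factors of Drosophila melanogaster are a family of secreted proteins encoded by 6 genes, Idgf1, Idgf2, Idgf3, Idgf4, Idgf5 and Idgf6. They were taken by gene name from the annotation, and their expression was read as the sum of the TPM of all transcripts of a gene in each library. TPM gives the abundance of a transcript, corrected for its length, as a part of all transcripts of the library. The 6 genes stand among 13771 genes with a transcript in the deposited tables, and all 6 passed the filter that left 11145 genes for testing (at least 1 TPM on average over the 12 libraries). RNA-seq was made from whole L3 larvae, the last larval stage, with poly-A selected RNA. The methods name 3 each of control and clamp mutant males and females, without saying whether larvae were pooled in an extraction. The 4 groups were clamp null females (yw, clamp2), control females (yw), clamp null males (yw, clamp2) and control males (yw), with 3 libraries each, numbered 4 to 6 for clamp null and 1 to 3 for control. The yw background is thus shared by all groups, and clamp2 is a null allele of Clamp, the gene of a zinc finger protein that binds GA repeats and helps to bring the dosage compensation complex to the male X chromosome. Nothing in the labels says whether the 3 libraries of a group came from separate crosses, so p-values measure the spread between these libraries, and age within the L3 stage was not given.

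The Idgf proteins have the fold of the family 18 chitinases, but lack the glutamate on which chitin cleavage depends. They were first found as proteins in conditioned medium that make imaginal disc cells divide in culture, in cooperation with insulin. In the larva they are made largely by fat body and haemocytes, released into the haemolymph, and are also known from work on cuticle formation, wound healing and immune defence.

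Some features of the libraries bear on every value below. Clamp RNA was at 16.2 to 20.04 TPM in clamp null females, against 36.3 to 45.1 TPM in control females, and at 21.4 to 22.8 TPM in clamp null males, against 43.4 to 59.2 TPM in control males, so the null larvae held less Clamp RNA but did not lack it. The null male libraries were not alike in the RNA that set control males apart from control females. Of 627 genes at 5 TPM or more in every control male and under 0.5 TPM in every control female, 25, 20 and 499 reached 1 TPM in clamp null male libraries 4, 5 and 6, against 15, 28 and 14 in the clamp null female libraries 4, 5 and 6. Libraries 4 and 5 of the clamp null males therefore lacked most of the male RNA that library 6 held. All 12 tested testis genes were also lower in clamp null than in control males. Whether the sex labels of libraries 4 and 5 are wrong or their larvae held less testis RNA cannot be told apart from these genes. The results of the Idgf genes for males are also given without the 2 libraries. The 6 salivary gland glue genes took 0.00103% to 0.354% of all TPM in clamp null females and 0.00209% to 0.0285% in clamp null males, against 8.01% to 15.3% in control females and 11.6% to 14.8% in control males. As TPM is a share of the library, a smaller share of the glue genes leaves a larger one for all others, so counts and mean effects rescaled without the glue genes are also given. The median log2 fold change of all tested genes was −0.20 in females and −0.75 in males for clamp null over control, and −0.02 and −0.24 after median-of-ratios scaling.

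Idgf1, Idgf2 and Idgf3 lie side by side on chromosome arm 2L, in this order and all on the plus strand, within 9917 bases (dm6 coordinates from the Ensembl BDGP6 annotation). Idgf1 (FBgn0020416) runs from base 16445278 to 16446793, Idgf2 (FBgn0020415) from 16447330 to 16450508, and Idgf3 (FBgn0020414) from 16450907 to 16455194. Only 536 bases separate Idgf1 from Idgf2, and 398 bases separate Idgf2 from Idgf3. Idgf4 (FBgn0026415) stands alone on chromosome X, on its minus strand between bases 9927973 and 9930948. Idgf6 (FBgn0013763, 16691022 to 16693751) and Idgf5 (FBgn0064237, 18393666 to 18395282) are both on the plus strand of arm 2R, 1699914 bases apart. The proteins of the main transcripts are close in size, at 439 residues for Idgf1, 440 for Idgf2, 441 for Idgf3, 442 for Idgf4, 444 for Idgf5 and 452 for Idgf6. Idgf1 and part of Idgf2 lie inside CG5888, and Idgf6 lies inside Pgant9, which in both cases runs on the minus strand and shares no exon bases with the Idgf gene. Reads shared between the family members could not be checked from TPM.

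Idgf4 and Idgf6 were the main members in every group. As a mean over the 3 libraries, Idgf4 held 40.0% of the summed TPM of the family in clamp null females, 41.2% in control females, 42.7% in clamp null males and 46.9% in control males. Idgf6 held 37.0%, 32.4%, 34.2% and 30.6% in the same order of groups. By its mean TPM Idgf4 stood between percentiles 94.9 and 97.0 of the tested genes in the 4 groups, and Idgf6 between 92.4 and 96.8. Idgf3 came next in each group. Idgf2 was the fourth gene by mean TPM in all groups except control females, where Idgf5 (30.4 TPM) stood above Idgf2 (22.6 TPM). TPM is scaled by transcript length, so levels of different genes can be set beside each other. Neighbours in this order did not always differ beyond their spread. The libraries of Idgf4 and Idgf6 overlapped in clamp null females and clamp null males, and narrowly in control females, but not in control males. Those of Idgf3 and Idgf2 overlapped in both clamp null groups and in neither control group.

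**Figure D1:**
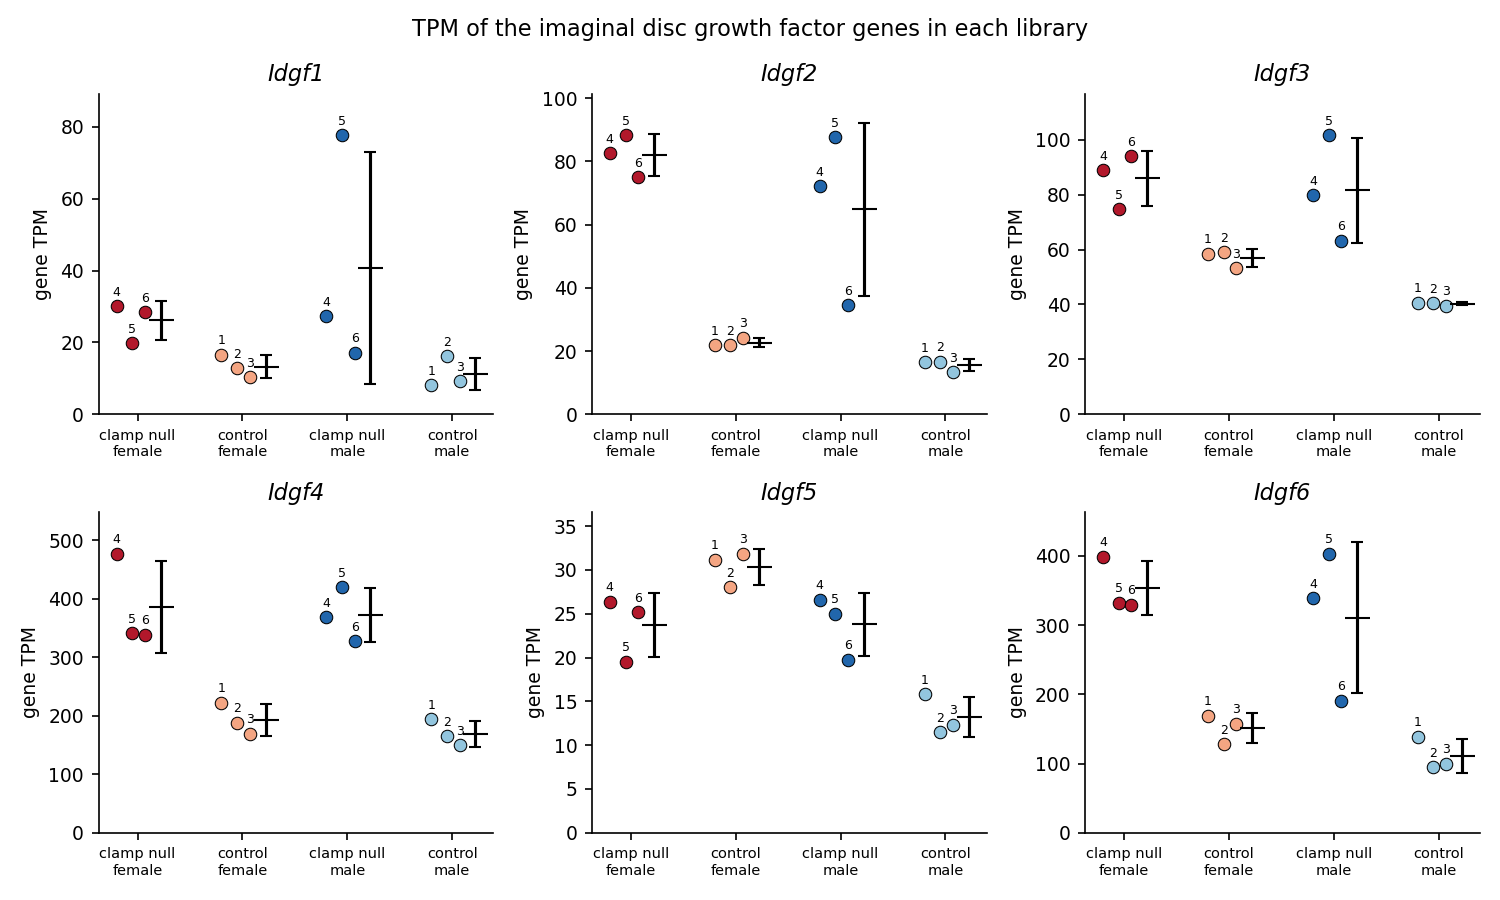
Gene TPM (vertical axes, from 0, a scale for each gene) of the 6 Idgf genes in each library, with the library number at each point and the mean ± SD of the 3 libraries beside them. In each sex the clamp null libraries sit above the control libraries without overlap for Idgf1, Idgf2, Idgf3, Idgf4 and Idgf6, while Idgf5 lies above control in males and below control in females. The share of all tested genes that separate in this way is not given here.

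Clamp null was compared with control within each sex. The paper states that clamp null L3 larvae do not pupate and that clamp2 males die before late L3. Age within L3 was not given, so stage and genotype cannot be told apart in these differences. In females Idgf2, Idgf4 and Idgf6 were higher in the clamp null larvae, and Idgf2 had the largest change of the family. In males all 6 members were higher. By their means, Idgf1, Idgf2, Idgf3, Idgf4 and Idgf6 were at 1.51 to 4.19 times the control mean, in a comparison in which more genes fell than rose. Taken as a sum, the family reached 1103, 876 and 891 TPM in clamp null females, against 519, 437 and 446 TPM in control females, a ratio of means of 2.05. It reached 913, 1114 and 653 TPM in clamp null males, against 413, 344 and 324 TPM in control males, a ratio of 2.48.

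Of the 6 members, 3 passed as higher in females (limma, Benjamini-Hochberg adjusted p under 0.05 over all tested genes), where 9.8% of all tested genes were higher and 15.6% lower, and the median log2 fold change of the members was 0.96. No member passed as lower in females, nor was one lower at an unadjusted p under 0.05. Rescaled without the glue genes, again 3 members were higher and 0 lower in females by limma, where 965 tested genes were higher and 2390 lower. Idgf5 was then lower at an unadjusted p under 0.05 (log2 fold change −0.53, limma adjusted p = 0.0967). In males 6 of 6 members were higher, where 11.3% of all tested genes were higher and 45.8% lower, and the members' median was 1.28. In males the same rescaling again gave 6 of 6, where 1069 tested genes were higher and 5871 lower. Without clamp null male libraries 4 and 5, library 6 is the lone clamp null male, so its own spread is unknown and it is assumed to vary like the libraries of the other groups. In that fit, which stands behind every value given without the 2 libraries, 4 of 6 members were higher in males, where 8.08% of all tested genes were higher and 32.5% lower. Under the contrast that averages the effect over both sexes, 5 of 6 members were higher, against 14.3% of all tested genes, and 5 of 6 were so again without the 2 libraries in doubt, against 12.8%. The size of this mean effect depends on those libraries. Without them it was 0.78 for Idgf1, 1.46 for Idgf2, 0.61 for Idgf3, 0.97 for Idgf4 and 1.01 for Idgf6, in place of 1.24, 1.86, 0.78, 1.06 and 1.32. Where the sex of a library goes against its label, sex and genotype cannot be told apart in this contrast.

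Idgf2, which can make disc cells divide in culture, showed the widest gap. It was at 82.5, 88.2 and 75.0 TPM in clamp null females, against 21.8, 21.8 and 24.2 TPM in control females. In males it was at 72.2, 87.7 and 34.5 TPM in clamp null libraries 4, 5 and 6, against 16.4, 16.7 and 13.3 TPM in control libraries. All null libraries lay above all controls, and null male library 6 lay well below the other null males. The log2 fold change was 1.81 ± 0.29 in females (SE, limma adjusted p = 0.00118) and 1.90 ± 0.29 in males (limma adjusted p = 0.000233). With library 6 as the lone null male the log2 fold change in males was 1.11 (limma adjusted p = 0.00695).

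Idgf4, the X-linked member and the most abundant, was at 476, 341 and 338 TPM in clamp null females, against 222, 188 and 169 TPM in control females. In clamp null males it was at 368, 419 and 327 TPM, against 193, 165 and 149 TPM in control males. Clamp null libraries were thus about 2 times the controls in both sexes, with no overlap. The log2 fold change was 0.98 ± 0.20 in females (limma adjusted p = 0.00456) and 1.13 ± 0.20 in males (limma adjusted p = 0.000612). It stayed at 0.96 in males when null male libraries 4 and 5 were left out (limma adjusted p = 0.0227).

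Idgf6, first described as a secreted protein of cultured Drosophila cells and later tied to the shaping of epithelial tubes, was at 399, 332 and 329 TPM in clamp null females, against 169, 128 and 158 TPM in control females. In males it was at 339, 403 and 191 TPM in clamp null libraries 4, 5 and 6, against 139, 94.6 and 100.01 TPM in control libraries. No null library reached down to a control library, but null male library 6 came nearest. The log2 fold change was 1.22 ± 0.27 in females (limma adjusted p = 0.00669) and 1.43 ± 0.27 in males (limma adjusted p = 0.000885), and 0.79 in males for library 6 alone (limma adjusted p = 0.0473).

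Idgf3, which is known for a part in clotting and wound repair, was at 88.9, 74.8 and 94.1 TPM in clamp null females, against 58.5, 59.0 and 53.2 TPM in control females. In clamp null males it was at 79.8, 102 and 63.2 TPM, against 40.7, 40.5 and 39.6 TPM in control males. The groups did not overlap in either sex, and the control males were the tightest group of the family. The change passed in males (log2 fold change 0.97 ± 0.20, limma adjusted p = 0.00165) and missed in females (0.58 ± 0.20, limma adjusted p = 0.0546). Without null male libraries 4 and 5 the change in males was 0.64 (limma adjusted p = 0.0483). The call in females hung on the processing: it passed with median-of-ratios scaling (0.84, limma adjusted p = 0.00428) and with rescaling without the glue genes it moved to 0.40 (limma adjusted p = 0.166).

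Idgf1, the first gene of the 2L cluster, was among the least abundant members and the most variable. It was at 30.1, 19.9 and 28.5 TPM in clamp null females, against 16.6, 12.8 and 10.4 TPM in control females, a log2 fold change of 0.93 ± 0.46 that did not pass (limma adjusted p = 0.163). In males it was at 27.4, 77.7 and 17.1 TPM in clamp null libraries 4, 5 and 6, against 8.14, 16.2 and 9.22 TPM in control libraries. Null male library 5 stood far above all others, while library 6 lay just above the highest control. The log2 fold change in males was 1.55 ± 0.46 (limma adjusted p = 0.0130), and the call was lost without control male library 1 (1.37, limma adjusted p = 0.0524) or without null male libraries 4 and 5 (0.63, limma adjusted p = 0.253). Without library 5 alone it was 0.95 (limma adjusted p = 0.0388). Averaged over the sexes it was 1.24 ± 0.33 (limma adjusted p = 0.00577).

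Idgf5 was the exception. It was at 26.4, 19.5 and 25.2 TPM in clamp null females, against 31.2, 28.0 and 31.8 TPM in control females, a log2 fold change of −0.35 ± 0.22 that did not pass (limma adjusted p = 0.274). In males it was at 26.6, 25.0 and 19.7 TPM in clamp null libraries, against 15.8, 11.5 and 12.3 TPM in control libraries, a log2 fold change of 0.80 ± 0.22 (limma adjusted p = 0.00861). Both clamp null groups were at the same level, and the groups that stood apart were the controls. Without null male libraries 4 and 5 the change in males was 0.56 and no longer passed (limma adjusted p = 0.146). Its share of the family TPM was 2.23% to 2.82% in clamp null females, against 6.002% to 7.13% in control females, and 2.24% to 3.03% in clamp null males, against 3.34% to 3.83% in control males.

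**Figure D2:**
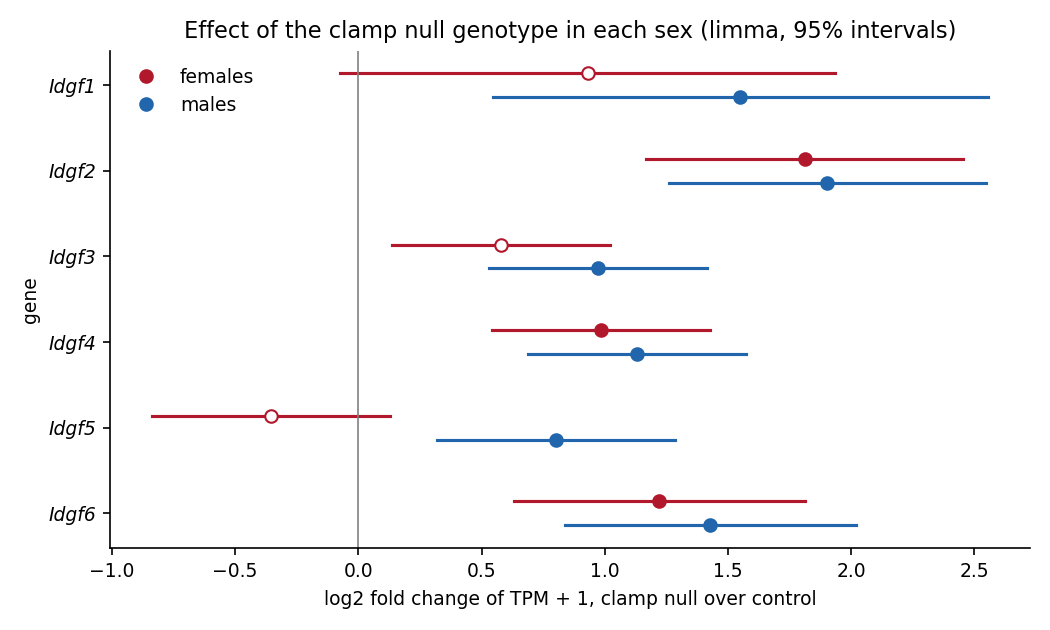
Log2 fold change of TPM + 1 for clamp null over control (horizontal axis) with 95% intervals from limma, for females above males at each gene, with filled points where the adjusted p was under 0.05 and open points where it was not. The estimates for Idgf2, Idgf4 and Idgf6 lie close together in both sexes, and Idgf5 is at −0.35 in females and 0.80 in males.

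For the 5 members other than Idgf5, the mean of both sexes gave log2 fold changes of 1.24 for Idgf1, 1.86 for Idgf2 (limma adjusted p = 2.74e-05), 0.78 for Idgf3 (0.00069), 1.06 for Idgf4 (9.45e-05) and 1.32 for Idgf6 (0.000145). For Idgf5 it was 0.22 ± 0.16 (limma adjusted p = 0.226). A two-sided exact permutation test within both sexes gave p = 0.005 for each of the 5, the smallest value it can give, and p = 0.35 for Idgf5. The value of 0.005 goes to any gene whose libraries separate in the same direction in both sexes, so it only restates the lack of overlap. It also takes the sex labels as given. Within a single sex the exact test cannot go below 0.1, the value for any gene whose 3 and 3 libraries do not overlap. A lack of overlap is therefore only a description here, with no share over all tested genes beside it. With the glue genes taken out before rescaling, the mean effects were 1.06 for Idgf1, 1.67 for Idgf2, 0.59 for Idgf3, 0.87 for Idgf4 and 1.13 for Idgf6, and all 5 still passed, while Idgf5 was at 0.042 (limma adjusted p = 0.826). With median-of-ratios scaling they were 1.64, 2.27, 1.20, 1.49 and 1.75, and Idgf5 passed too, at 0.63 (limma adjusted p = 0.00395). Over all tested genes, 1346 were higher in this contrast without the glue genes, and 2400 with median-of-ratios scaling.

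The make-up of the family moved with genotype as a result. Idgf2 held 7.48% to 10.1% of the family TPM in clamp null females, against 4.19% to 5.42% in control females, and 5.28% to 7.91% in clamp null males, against 3.97% to 4.84% in control males. Idgf3, whose level changed less than that of its neighbour Idgf2, held 8.06% to 10.6% in clamp null females, against 11.3% to 13.5% in control females. Idgf4 kept about the same share in females, at 38.0% to 43.2% in clamp null and 37.8% to 43.0% in control.

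**Figure D3:**
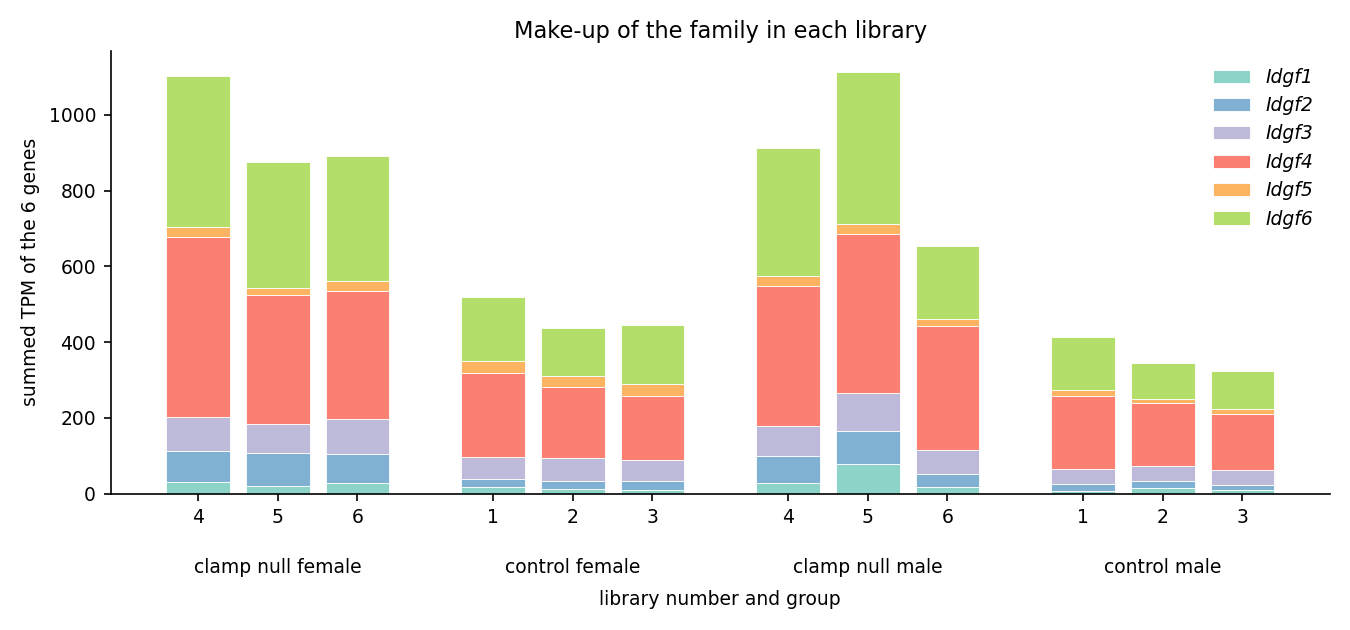
Summed TPM of the 6 genes (vertical axis, from 0) in each library, stacked by gene, with the 4 groups side by side. Idgf4 and Idgf6 make up most of each bar, and the clamp null libraries, at 653 to 1114 TPM, all stand above the control libraries, at 324 to 519 TPM.

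To ask whether the family differed between the sexes, males were compared with females within each genotype. Among controls Idgf5 was lower in males, at 13.2 ± 2.3 TPM, than in females, at 30.4 ± 2.0 TPM (SD, n = 3 each, log2 fold change −1.15 ± 0.22, limma adjusted p = 0.00155). It was the single member of 6 that passed as lower, where 1.56% of all tested genes did. Idgf2 (log2 fold change −0.52) and Idgf3 (−0.49, limma adjusted p = 0.110) also had no control male library as high as a control female one, but did not pass. Fat body markers moved the same way in controls. The summed TPM of the 7 fat body genes was 6800 to 10931 in control males, against 18319 to 20740 in control females, and Lsp1gamma and apolpp passed as lower in males. None of the 7 was at 0 in any library, and their part in the level of Idgf5 was not tested. Control males also held testis RNA, with a sum over 13 testis genes of 1366 to 2411 TPM, against 25.4 to 52.5 TPM in control females. In whole larvae, fewer cells of a type and less RNA per cell cannot be told apart.

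Among clamp null larvae no member passed as different between males and females (0 of 6 by limma, adjusted or at an unadjusted p under 0.05), and 0.0179% of all tested genes did in either direction. That share rests on libraries 4 and 5, and without them 12.2% of all tested genes were higher and 3.41% lower in males. The intervals were wide. For Idgf5 the log2 fold change of males over females was 0.01 with a 95% interval of −0.48 to 0.49, for Idgf4 −0.04 with an interval of −0.48 to 0.40, and for Idgf1 0.36 with an interval of −0.64 to 1.37. With library 6 as the lone null male, and the spread taken from the other groups, Idgf2 was at −1.22 in males over females (limma adjusted p = 0.00863).

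The effect of genotype differed between the sexes for Idgf5 alone. Its log2 fold change was 1.16 ± 0.31 higher in males than in females (interaction term, limma adjusted p = 0.0253), where 0.493% of all tested genes passed in that direction. The difference for the other 5 lay between 0.09 for Idgf2 and 0.62 for Idgf1, with limma adjusted p values of 0.437 to 0.928. Their 95% intervals were wide, at −0.80 to 2.04 for Idgf1 and −0.23 to 1.02 for Idgf3, so a difference in them is not excluded. The call for Idgf5 was not firm: it was lost with a pseudocount of 0.1 (limma adjusted p = 0.0551), with a block for the library number (limma adjusted p = 0.0763), without null male libraries 4 and 5 (0.91, limma adjusted p = 0.123), and when any of control female library 3, control male library 2 or 3, null female library 5 or null male library 4 was left out.

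Transcripts of the family were then compared by their share of the TPM of their gene. Idgf1 and Idgf5 have a single transcript each, Idgf2-RA, Idgf3-RA and Idgf6-RA carried most of the TPM of their genes, and no share passed as changed with genotype or sex. Of the 12 member transcripts tested, 0 passed in females (0.571% of all transcripts tested did), 0 in males (2.93%), 0 in the mean of both sexes (3.55%), 0 between control males and females (1.53%) and 0 between clamp null males and females (0.0973%), all by limma. At an unadjusted p under 0.05 there were 1, 1, 2, 1 and 0 in the same order. Idgf4 was the member with a sizeable second transcript. Idgf4-RC (FBtr0343030) encodes the same protein as Idgf4-RA and differs by a 3′UTR of 438 bases in place of 145. It was at 110, 86.3 and 36.0 TPM in clamp null females, against 24.5, 24.2 and 21.7 TPM in control females, and at 66.1, 64.6 and 44.0 TPM in clamp null males, against 32.5, 36.0 and 21.7 TPM in control males. As a share of Idgf4 it was 19.6% ± 7.9 in clamp null females, against 12.3% ± 1.1 in control females (limma adjusted p = 0.595), and 15.6% ± 2.3 in clamp null males, against 17.7% ± 3.7 in control males (limma adjusted p = 0.886, SD, n = 3 each). The rise of Idgf4 was thus carried by both of these transcripts. Idgf3-RB, with a 3′UTR of 1692 bases, held 2.63% to 3.33% of Idgf3 in clamp null females, against 6.78% to 7.64% in control females, with a difference of −4.30 percentage points and a 95% interval of −10.3 to 1.71. Idgf2-RC, which encodes a shorter protein of 368 residues, was above 0 in a single library, control female 3, where it made up 66.3% of Idgf2. Idgf4-RB was above 0 in control female libraries 2 and 3 only.

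The nearest relatives of the Idgf proteins are the active chitinases, which share the same fold and cut chitin. Of 10 genes, 9 were tested, and their median log2 fold change was −0.16 in females and −0.33 in males. Cht7 and Cht6 were higher in both sexes, where 9.8% of all tested genes were higher in females and 11.3% in males. Cht7 was at 38.9, 30.6 and 29.2 TPM in clamp null females, against 9.60, 7.20 and 4.52 TPM in control females (log2 fold change 2.10 ± 0.31), and at 25.1 TPM as a mean in clamp null males, against 7.04 TPM in control males (1.65 ± 0.31). Cht6 had log2 fold changes of 2.07 ± 0.39 in females and 1.55 ± 0.39 in males. Cht5 and Cht10, which are known to break down old cuticle at moults, were lower in males, with log2 fold changes of −1.85 ± 0.43 and −2.23 ± 0.51, as was Cht12 (−3.77 ± 0.60). These 3 of 9 were lower in males where 45.8% of all tested genes were. Cht11 passed as lower in the mean of both sexes, where 49% of all tested genes did. In females Cht5 was at 0.00, Cht10 at −1.14 (limma adjusted p = 0.125) and Cht12 at −0.23, and did not pass. Cht12 was at 22.9 to 26.1 TPM in control males and at most 0.737 TPM in control females, so it also moved with the male RNA that null male libraries 4 and 5 lacked.

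Of 8 genes that build and order the chitin matrix, 5 were higher in females (kkv, Gasp, obst-A, serp and verm). In males 4 were higher (the same without kkv). Of all tested genes, 9.8% were higher in females and 11.3% in males. The median log2 fold change of the 8 genes was 1.41 in females and 0.92 in males. Gasp, a chitin-binding protein of the cuticle and tracheae, had the largest change, at 408, 402 and 412 TPM in clamp null females, against 69.9, 77.2 and 69.8 TPM in control females, a log2 fold change of 2.48 ± 0.36. In males it was at 353, 489 and 133 TPM in clamp null libraries, against 56.0, 59.1 and 58.2 TPM in control libraries (2.28 ± 0.36), with library 6 lowest among the null males, as for all 6 Idgf genes. The deacetylases serp and verm, which modify chitin, had log2 fold changes of 1.90 and 2.01 in females and 1.58 and 2.14 in males, and obst-A 1.78 and 1.67. In null male libraries 4, 5 and 6, serp was at 137, 187 and 136 TPM and verm at 281, 330 and 284 TPM. In the same libraries obst-A was at 79.2, 78.8 and 257 TPM, so library 6 was the highest there and not the lowest. The chitin synthase kkv was higher in females (0.86 ± 0.27, limma adjusted p = 0.0364) and was at 0.26 in males (limma adjusted p = 0.432). The other genes of the list, mmy, knk and rtv, did not pass in either sex, and rtv passed as lower in the mean of both sexes.

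**Figure D4:**
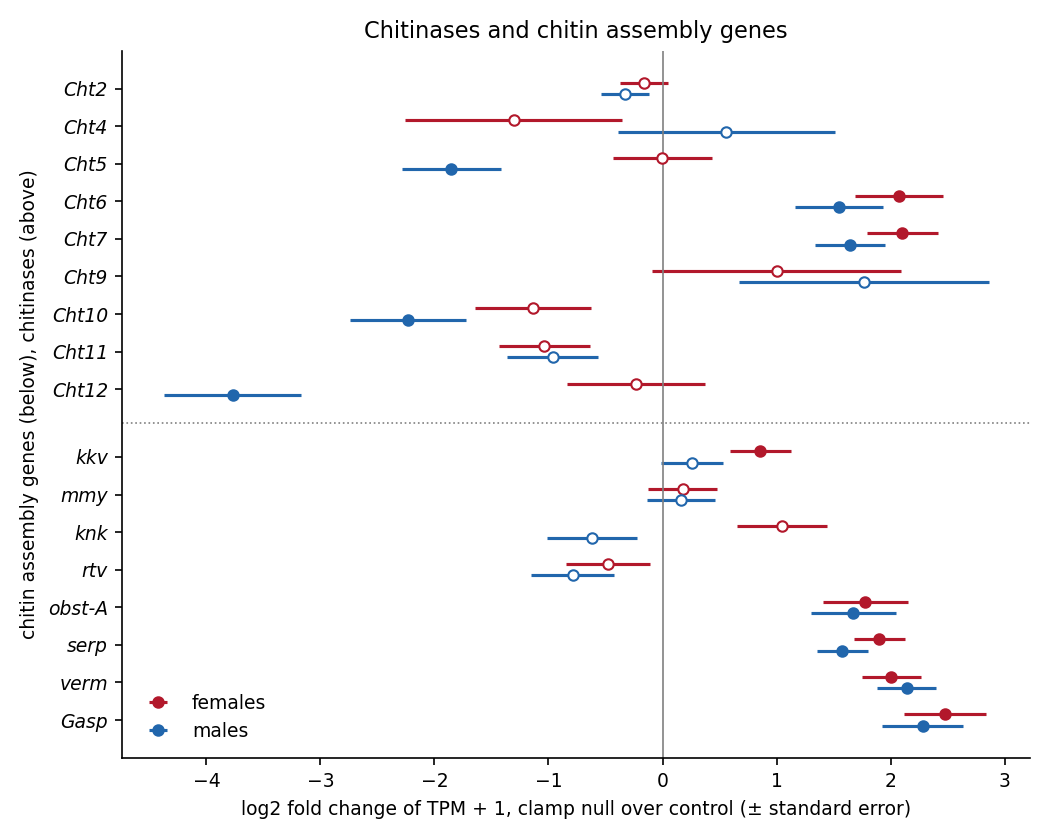
Log2 fold change of TPM + 1 for clamp null over control (horizontal axis) with its standard error, for 9 tested chitinases (upper block) and 8 chitin assembly genes (lower block), females above males at each gene, with filled points where the adjusted p was under 0.05. Cht6, Cht7, obst-A, serp, verm and Gasp lie between 1.55 and 2.48 in both sexes, while Cht5, Cht10 and Cht12 are filled on the negative side in males only.

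Since Idgf proteins act on cultured cells together with insulin, genes of the insulin pathway were also read. InR, the receptor, was under the filter. The receptor substrate chico was higher in females, with means of 13.6 TPM in clamp null and 4.16 TPM in control (log2 fold change 1.59 ± 0.42, limma adjusted p = 0.0163), and was at −0.03 in males (limma adjusted p = 0.954). The lipid kinase Pi3K92E was lower in males (−0.95 ± 0.31, limma adjusted p = 0.0220) and was at 0.26 in females (limma adjusted p = 0.625). Akt, foxo, S6k and Thor did not pass in either sex, and Akt passed as lower in the mean of both sexes.

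Markers of the tissues that could feed the family were read beside it. The 6 haemocyte genes summed to 296, 180 and 200 TPM in clamp null females, against 127, 118 and 133 TPM in control females, and to 96.8, 341 and 72.9 TPM in clamp null males, against 108, 104 and 82.5 TPM in control males. Null male library 5, the highest in haemocyte genes, was also the library with 77.7 TPM of Idgf1. Library 6, the lowest of the null males in haemocyte genes, was the lowest null male for every Idgf gene. In haemocyte genes library 4, at 96.8 TPM, lay within the control males, and library 6, at 72.9 TPM, lay below them. Both were above all control males for every Idgf gene. Of the 6 haemocyte genes, Hml and NimC1 were higher in both sexes, where 9.8% of all tested genes were higher in females and 11.3% in males. He, Pxn, eater and srp did not pass in either sex. Their log2 fold changes were −0.45, 0.82, 0.53 and 0.24 in females, and 0.05, 0.29, −0.28 and −0.35 in males. NimC1 rose most, by 3.57 in females and 2.75 in males on the log2 scale. None of the 6 was at 0 in a library. The fat body genes summed to 9191 to 15040 TPM in clamp null females, against 18319 to 20740 TPM in control females, and to 4438 to 12960 TPM in clamp null males, against 6800 to 10931 TPM in control males. Among them Lsp1beta was higher in both sexes and Fbp1 lower (by 10.1 in females and 9.19 in males on the log2 scale), with Lsp1gamma and apolpp higher and Fbp2 and Lsp2 lower in males. Of 8 imaginal disc genes, 3 fell in females (vg, dac and nub) and 6 in males, where 15.6% and 45.8% of all tested genes fell, and the 8 summed to 9.70 to 29.7 TPM in clamp null females, against 25.8 to 72.9 TPM in control females, and to 12.8 to 19.6 TPM in clamp null males, against 54.9 to 75.7 TPM in control males. In males all 12 tested testis genes fell, and the list of 13 summed to 5.46, 14.3 and 319 TPM in null male libraries 4, 5 and 6. In females 1 of the 12 fell, bam. All 6 glue genes fell in both sexes, Sgs8 most, and Sgs8 was at 0 in 4 of the null libraries. The part of these tissues in the levels of the Idgf genes was not tested.

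Of the 16 protein-coding genes nearest to the Idgf loci, 2 on each side of each locus, 7 passed the filter. In females 1 of these 7 was higher and 1 lower, where 9.8% of all tested genes were higher and 15.6% lower. In males 1 was higher and 2 were lower, where 11.3% of all tested genes were higher and 45.8% lower. Counts this small do not set the neighbours apart from all genes. GstE10, a glutathione transferase gene 1356 bases from Idgf5, was higher in both sexes (log2 fold change 2.44 ± 0.51 in females and 3.10 ± 0.51 in males). The eye and leg gene dac, 11318 bases beyond Idgf3, was lower in both (−2.17 ± 0.41 and −2.94 ± 0.41), and CG34457, near Idgf6, was lower in males (−3.92 ± 0.50). The hosts of the nested genes were not higher: CG5888 was at −0.31 in females and −0.85 in males without passing, and Pgant9 was at −0.20 in females and lower in males (−1.10 ± 0.37, limma adjusted p = 0.0226), where Idgf6 was higher. Whether the libraries kept strand was not given.

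Among themselves the genes were ordered alike over the 12 libraries, except for Idgf5. Pearson's r of log2(TPM + 1) ran from 0.806 to 0.976 between Idgf1, Idgf2, Idgf3, Idgf4 and Idgf6, and from 0.340 to 0.623 between Idgf5 and the others. These are descriptions over 12 libraries that share their genotype groups and their scaling. Over the 5690 genes that averaged 10 TPM or more, those most like Idgf2 were UGP (r = 0.990) and Gasp (0.989), and those most like Idgf6 were Gyg and MtnA (both 0.970). Idgf4 was most like hlk (0.981) and SP1173 (0.970), Idgf3 like ND-49 (0.963) and Cyp6a9 (0.952), and Idgf1 like CG33494 and P5CDh1 (both 0.950). Idgf5 was most like CG42514 (0.889) and Pdcd4 (0.881). CG42514 had means of 12.7 TPM in clamp null females, 13.0 TPM in control females, 13.9 TPM in clamp null males and 6.49 TPM in control males. It thus shared the low level of Idgf5 in control males, but not its higher level in control females than in clamp null females.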

How the data were processed

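Transcript TPM of 12 libraries of L3 larvae was deposited by the authors. Per the study's methods and the labels, reads were trimmed with Trim Galore and cutadapt and quantified with Salmon on dm6 transcripts, and each table holds 29936 transcripts scaled to the same total, with no filter. TPM keeps no depth, so how deeply the libraries were sequenced is unknown, and error is the spread between libraries. Groups were taken from the sample titles, since a sex field of the labels conflicts with them. An Ensembl annotation of BDGP6 held 29926 transcripts, and the other 10 were left out (at most 58.0 TPM in a library).

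Gene TPM was the sum over transcripts. Genes that averaged at least 1 TPM were fitted with limma 3.58.1 (R 4.3.3, with a trend on the mean) on log2(TPM + 1) over all 4 groups, with Benjamini-Hochberg adjustment over 11145 genes and calls under 0.05. The pseudocount makes fold changes of low genes too small. Shares of transcripts were fitted with limma without a trend over 15415 transcripts (genes with 2 or more transcripts, a mean of at least 3 TPM and TPM above 0 in every library). The scripts were tested on simulated data. Members, gene lists, neighbours and alternatives were chosen with earlier results of these data known. Genes named were the members, the chitinases, the largest called change of each list, 2 neighbours on each side of a locus and the 2 genes of highest r with each member. Other list genes were named after their values were seen, where few were called. Alternatives were another pseudocount, filters, median-of-ratios scaling, rescaling without the glue genes, no trend, only the groups compared, a block for the library number and leaving out libraries. A result of the insulin pathway list is not reported here.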

Additional observations from a re-analysis of the deposited data

Results flagged for a closer look

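Idgf5 stood out because the effect of clamp null differed between the sexes: its log2 fold change in males was 1.16 larger than in females (limma interaction, adjusted p = 0.0253). The clamp null means were 23.8 TPM in males and 23.7 TPM in females, and the control means 13.2 TPM in males and 30.4 TPM in females. All 3 clamp null males lay above the control males, and all 3 clamp null females below the control females. This separation is only a description, with no share over all tested genes beside it. In females the change did not pass (log2 fold change −0.35, limma adjusted p = 0.274). The doubt about the sex of clamp null male libraries 4 and 5 touches the difference of 1.16 between the sexes, which was 0.91 without them. With a block for the library number it did not pass (limma adjusted p = 0.0763).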

How the results depend on the processing

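The direction of Idgf1, Idgf2, Idgf3, Idgf4 and Idgf6 in clamp null over control held in every alternative run in each sex. The count of members higher was 3 to 4 of 6 in females, 4 to 6 in males and 5 to 6 in the mean of both sexes. Over all tested genes, whose number varied with the filter, 793 to 1498 were higher in females and 1338 to 2400 in the mean of both sexes. In males 1029 to 2027 were higher where more than 1 null male was kept. The call for Idgf3 in females was gained with only the 2 groups compared (limma adjusted p = 0.0311) and with a pseudocount of 0.1 (0.0460). That for Idgf1 in males was lost with only the 2 groups compared (limma adjusted p = 0.0563). Between control males and females, 2 members were lower with median-of-ratios scaling or with only the 2 groups compared. There Idgf3 joined Idgf5 (−0.80, limma adjusted p = 0.00441, and −0.49, 0.0316). Over all tested genes, 393 and 271 were lower in control males with these settings. The count of members whose effect was higher in males was 0 in place of 1 with a pseudocount of 0.1 and without null male libraries 4 and 5, and 0 to 1 when single libraries were left out. Without null male libraries 4 and 5, 1 member was lower in null males. The count of member transcripts with a lower share in control males was 0 to 1 when single libraries were left out, with 1 without control female library 1. Of all tested transcripts, 67 to 106 then had a lower share in control males. The cause was not tested for any of these.

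Reversals were confined to differences between the sexes that had not passed. Without null male libraries 4 and 5, the difference in effect was −0.30 for Idgf1, −0.70 for Idgf2, −0.028 for Idgf4 and −0.43 for Idgf6, and null males over null females was −0.56 for Idgf1 and −0.24 for Idgf5. With single libraries left out, the difference in effect was −0.18 to 0.48 for Idgf2 and −0.014 to 0.52 for Idgf6, and null males over null females was −0.24 to 0.82 for Idgf1, −0.26 to 0.073 for Idgf3, −0.13 to 0.12 for Idgf4, −0.12 to 0.13 for Idgf5 and −0.47 to 0.069 for Idgf6.

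Nothing in the labels says whether library numbers pair the sexes. The correlation of deviations between same-numbered libraries was −0.016, −0.054 and −0.077 in clamp null and 0.264, −0.061 and 0.146 in control. Between libraries of unlike number it ran from −0.094 to 0.113 in clamp null and from −0.24 to 0.098 in control. These few values cannot decide whether control libraries were paired. With a replicate block for the number, the sex difference in the effect for Idgf5 stayed at 1.16 but did not pass (limma adjusted p = 0.0763, 0 members in place of 1), and Idgf5 was still lower in control males (−1.15, adjusted p = 0.0104). Over all genes, counts moved by over 1.5 times in places: 926 genes fell in females without control female library 2 and 1070 without null female library 5 (1742 with all), and with median-of-ratios scaling 2027 rose and 3232 fell in males (1263 and 5103 with TPM). Counts for the sexes moved more: genes lower in control males numbered 78 to 393 (174 with all), genes whose effect was higher in males 16 to 211 (55 with all), and without null male libraries 4 and 5 there were 1357 genes higher and 380 lower in null males (0 and 2 with all).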

Other observations

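Cuticle proteins of the larva changed in both directions. Lcp3 was higher in both sexes, with means of 23362 TPM in clamp null and 4360 TPM in control females, and of 18902 TPM in clamp null and 2707 TPM in control males (log2 fold change 2.51 and 2.86). Lcp1 and Lcp2 were lower in both sexes, Lcp1 by 4.31 in females and 5.02 in males on the log2 scale, and Lcp4 was higher in males (0.68). Summed, the 4 genes were at 42323 to 61025 TPM in clamp null females, against 44912 to 49781 TPM in control females, and at 41446 to 44670 TPM in clamp null males, against 28986 to 40883 TPM in control males.

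MtnA, a metallothionein gene that was among the most like Idgf6 over the libraries, had means of 5024 TPM in clamp null and 389 TPM in control females, and of 3483 TPM in clamp null and 202 TPM in control males.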
